A study of Mus musculus with 67 samples.

Results

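Accessibility was compared between p2 and p3 neural progenitors (NPs) at day 6 of differentiation, in 10 of the 67 CaTS-ATAC samples of the series. The 6 p2 samples came from 10 nM SAG (3 replicates) and 100 nM SAG (3 replicates), and the 4 p3 samples from 100 nM SAG (2 replicates) and 500 nM SAG (2 replicates). All were made from HM1 mouse embryonic stem (ES) cells that were taken through a neuromesodermal progenitor (NMP) stage at day 3 and then given retinoic acid together with SAG, an agonist of smoothened that stands in for the Shh ligand. No sample carried a genetic change that another lacked, and the replicates of a condition were independent differentiations of the same line. Samples of different conditions with the same replicate number may share a differentiation. The main fit treated all 10 samples as independent, and a fit with a block for the replicate number is given as an alternative. CaTS-ATAC fixes the cells, stains transcription factors (TFs) inside them and sorts on the stain, and the sorted cells give the bulk ATAC-seq sample. In these sorts p2 were the SOX2+ cells with NKX6.1 and PAX6, and p3 the SOX2+ cells with NKX2.2 and without OLIG2. The groups were taken from the labels alone. The value of an element in a sorted sample cannot tell apart more cells with the element open from a wider opening in each cell. p2 and p3 share a SAG concentration only at 100 nM, so the pooled comparison is given beside that of the 5 samples at 100 nM, and SAG and cell type cannot be told apart outside it.

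Shh from the notochord and floor plate (FP) patterns the ventral neural tube into progenitor domains. p3 is the most ventral of the NP domains and gives rise to V3 interneurons, pMN lies dorsal to it and makes motor neurons, and p2 lies dorsal to pMN and makes V2 interneurons. The domains are set by homeodomain and bHLH TFs that repress each other, while FOXA2 is a forkhead pioneer factor of the FP and of endoderm that can bind its sites in closed chromatin.

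Between 15318155 and 26303485 reads fell in elements in the p2 samples, and between 12529289 and 22218996 in the p3 samples. Across all elements, the squared correlation of the deposited values was 0.548 to 0.830 over the 24 pairs of a p2 with a p3 sample (median 0.697), and 0.875 to 0.976 over the 8 pairs of replicates. One library stood apart. Replicate 3 of p2 at 100 nM had squared correlations of 0.836 to 0.902 with the other 5 p2 samples, whereas the 10 pairs among those 5 had 0.942 to 0.976. At the elements called higher in p3 when it was left out, this library lay a median of 49.2% of the way from the other p2 samples to p3, on the log2 scale. The other 5 p2 samples, each set against the rest without replicate 3, lay between -18.9% and 8.29% of the way. At elements called lower in p3 it lay 16.3% of the way, against -4.17% to 5.46% for the others. The other 5 p2 samples had a part in choosing these elements and replicate 3 had none. Part of the gap may therefore follow from the choice, and these positions are a description only. Main counts and some single results are therefore given with and without this library, and the other results with it only.

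The markers of the labelled types were checked through the elements nearest to them. The summed normalized count over the 7 elements of Nkx2-9, a TF of the p3 domain, was 1094 to 2041 in p2 and 2431 to 3403 in p3. Over the 114 elements of Irx3, Irx5, Pax6, Nkx6-1 and Nkx6-2 it was 44806 to 55425 in p2 and 31999 to 39505 in p3, so the ranges did not overlap in either list. No element with Nkx2-2 as its nearest gene was analysed here. The sum over the 27 elements of the pMN genes Olig1 and Olig2 was 7590 to 11038 in p2 and 4037 to 6696 in p3. The 18 elements of the neuronal genes Tubb3, Dcx, Stmn2 and Elavl3 summed to 3596 to 5138 in p3, to 3805 in replicate 3 of p2 at 100 nM and to 6145 to 7570 in the other p2 samples. The 2 p0-1 genes Dbx1 and Dbx2, with 32 elements, summed to 3950 to 5208 in p2 and 2074 to 2353 in p3, and the 20 elements of the NMP genes T, Tbx6 and Nkx1-2 to 1945 to 2199 and 1881 to 2051. The part of neurons in these samples in any result was not tested. No element of these lists was at 0 in all samples of either group, except 1 FP element in p3.

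The sequences below are the central 200 bp of the 3 intronic or intergenic elements with the largest increase in p3, in mm10 coordinates and on the forward strand, shown because they are the sites where p3 exceeded p2 by most. Each is named by its nearest gene. Capitals mark matches to the forkhead (FOX) letters TGTTTAC on either strand. The elements near Ghitm and Nkx2-9 were chosen after their values were seen, because they hold such a match in their central 300 bp, which is printed.
Spaca7, chr8:12609898-12610097: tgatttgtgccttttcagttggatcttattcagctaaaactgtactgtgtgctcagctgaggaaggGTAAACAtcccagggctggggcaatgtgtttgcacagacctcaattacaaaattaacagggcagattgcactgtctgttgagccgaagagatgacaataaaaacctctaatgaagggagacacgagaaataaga
1700113H08Rik, chr10:87077365-87077564: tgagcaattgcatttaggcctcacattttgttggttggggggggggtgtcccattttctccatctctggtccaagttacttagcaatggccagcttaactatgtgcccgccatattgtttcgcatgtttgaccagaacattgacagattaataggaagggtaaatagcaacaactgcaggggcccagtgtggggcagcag
Mir466f-4, chr13:71003929-71004128: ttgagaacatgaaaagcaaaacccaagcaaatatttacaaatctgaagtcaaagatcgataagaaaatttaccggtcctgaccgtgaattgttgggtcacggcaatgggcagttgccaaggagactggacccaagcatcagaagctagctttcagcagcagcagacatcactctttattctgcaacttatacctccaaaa
Ghitm, chr14:37284146-37284445: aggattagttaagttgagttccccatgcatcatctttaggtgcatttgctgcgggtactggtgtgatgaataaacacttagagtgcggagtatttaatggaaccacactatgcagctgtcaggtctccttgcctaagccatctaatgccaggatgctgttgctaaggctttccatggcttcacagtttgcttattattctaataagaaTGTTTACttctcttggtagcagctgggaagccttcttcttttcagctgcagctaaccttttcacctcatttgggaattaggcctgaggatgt
Nkx2-9, chr12:56618536-56618835: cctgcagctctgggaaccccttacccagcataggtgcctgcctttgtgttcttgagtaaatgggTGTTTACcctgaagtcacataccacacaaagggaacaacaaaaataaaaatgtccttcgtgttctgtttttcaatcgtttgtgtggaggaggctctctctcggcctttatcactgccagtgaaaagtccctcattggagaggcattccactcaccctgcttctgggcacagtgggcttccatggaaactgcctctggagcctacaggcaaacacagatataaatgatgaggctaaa

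The element near Spaca7 held 1 match in its 1367 bp, whereas the elements in 1700113H08Rik and near Mir466f-4 held 0 over their whole length. Only the exact letters TGTTTAC were searched, so 0 matches does not mean that an element lacks other forms of a forkhead site. The element near Ghitm held 2 matches over its 880 bp and that near Nkx2-9 held 1 over 304 bp.

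Those with the largest decrease in p3 are given in the same way, with capitals for the homeobox core TAATTA. The Pax6 element was added after its values were seen because it holds 2 such matches in its central 300 bp.
Prg4, chr1:150587581-150587780: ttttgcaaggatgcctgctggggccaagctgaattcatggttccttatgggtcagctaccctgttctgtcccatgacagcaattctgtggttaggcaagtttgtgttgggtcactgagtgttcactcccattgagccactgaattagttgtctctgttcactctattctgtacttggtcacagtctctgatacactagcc
Dnajc24, chr2:106213883-106214082: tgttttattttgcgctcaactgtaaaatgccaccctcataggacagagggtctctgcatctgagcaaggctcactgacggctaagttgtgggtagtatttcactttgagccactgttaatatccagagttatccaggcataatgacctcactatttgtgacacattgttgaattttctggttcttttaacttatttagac
Cops8, chr1:90467670-90467869: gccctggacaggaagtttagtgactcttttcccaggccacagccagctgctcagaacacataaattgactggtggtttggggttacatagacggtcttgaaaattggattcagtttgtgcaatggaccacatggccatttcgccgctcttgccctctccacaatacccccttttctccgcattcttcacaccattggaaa
Pax6, chr2:105720159-105720458: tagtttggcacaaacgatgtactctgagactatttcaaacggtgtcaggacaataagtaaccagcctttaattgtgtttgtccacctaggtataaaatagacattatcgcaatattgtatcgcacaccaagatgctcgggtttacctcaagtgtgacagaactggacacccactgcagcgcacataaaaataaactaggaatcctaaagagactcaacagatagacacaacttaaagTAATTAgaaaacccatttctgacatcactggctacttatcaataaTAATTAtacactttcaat

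The first 3 held 0 matches to the homeobox core over 888, 675 and 1056 bp, and the Pax6 element held 3 over its 1868 bp.

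Of 33256 elements with a mean above 100 normalized counts, 3474 differed between p3 and p2 (limma on the deposited log2 values, with a log2 fold change beyond 2 in either direction and an adjusted p under 0.01), which is 10.4% of those tested. In p3, 1460 elements were higher and 2014 lower, or 4.39% and 6.06% of those tested. The median element of the first set had 52.1 normalized counts in p2 and 358 in p3, and the median element of the second had 323 in p2 and 34.9 in p3. The median log2 fold change over all tested elements was 0.01. Because the filter is on the mean of 6 p2 and 4 p3 samples, an element at 0 in p2 needed 250.0 counts in p3 to be tested, and an element at 0 in p3 needed 166.7 in p2. Without the filter, 3569 elements were higher and 4281 lower in p3.

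**Figure D1:**
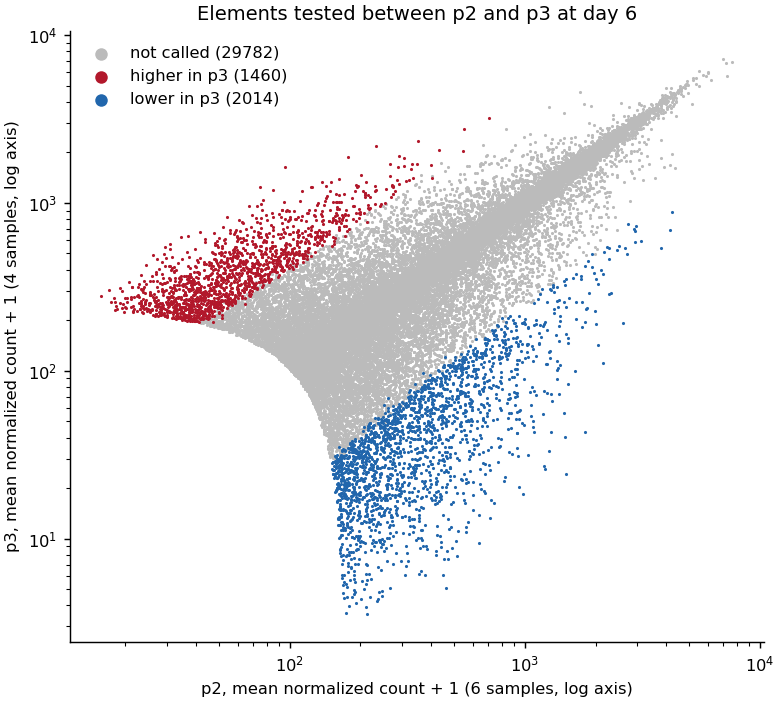
Mean normalized count plus 1 of each of the 33256 tested elements in p2 (x axis, 6 samples) and p3 (y axis, 4 samples), both on log axes, with elements higher in p3 in red and lower in p3 in blue. Called elements form 2 wings of 1460 and 2014, and the curved lower edge is the filter on the mean of the 10 samples.

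The same samples chose the called elements, so little overlap between the groups follows largely from the choice and is a description only. The values of the p2 samples did not overlap with those of the p3 samples in 1398 of the 1460 elements higher in p3 (95.8%) and in 2011 of the 2014 lower elements (99.9%), against 33.6% of all tested elements. When replicate 3 of p2 at 100 nM was left out, these counts were 1460 and 2013. The fit without that library called 4013 elements, of which 1838 were higher and 2175 lower in p3, or 5.51% and 6.53% of 33331 tested. Of the elements called with all samples, 98.2% were called without the library, and these were 85.0% of the calls made without it, with 0 in the opposite direction. Leaving out replicate 3 of p3 at 500 nM instead gave 966 higher and 2004 lower.

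The largest increase in p3 was at an intergenic element 36962 bp from the transcriptional start site (TSS) of Spaca7, a gene of the sperm acrosome (chr8:12609315-12610681). It had 1583, 1703, 1357 and 1925 normalized counts in the 4 p3 samples. In the p2 samples it had 26.9 at the lowest, a median of 81.8 and 221 at the highest, so no p2 sample came near the p3 samples. The log2 fold change was 4.23 ± 0.44 (SE, adjusted p = 9.72e-06), and 4.52 without replicate 3 of p2 at 100 nM.

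An element in an intron of 1700113H08Rik (chr10:87076904-87078026) followed, with 1118, 1381, 1038 and 1446 counts in p3 and 15.5 to 205 in p2 (median 61.0), a log2 fold change of 4.18 ± 0.45 (adjusted p = 1.15e-05). The third, 103060 bp from Mir466f-4 (chr13:71003402-71004656), had 879, 1415, 775 and 1687 in p3 and 13.0 to 278 in p2. Here, too, the groups did not overlap, and the highest p2 value came from replicate 3 at 100 nM in all of these elements.

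The fifth was the distal element with the largest change at Foxa2 (chr2:147888553-147889471), which lies 157957 bp from the TSS. It had 529, 696, 464 and 854 counts in p3 and 7.34 to 96.1 in p2 (median 26.1), with a log2 fold change of 3.99 ± 0.43 (adjusted p = 1.29e-05). An element 4728 bp upstream of Prom1, which encodes the membrane glycoprotein prominin-1 of stem and progenitor cells, had 323, 608, 311 and 705 in p3 and 5.66 to 77.9 in p2. The others were near 1700085C21Rik in an intron of Rgs6, a regulator of G protein signaling, near Ghitm, and in an intron of Rab3c, a small GTPase of synaptic vesicles, with log2 fold changes of 4.02, 3.94 and 3.91.

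The largest decrease was larger than any increase. An element in an intron of Hmcn1, a matrix protein gene, with Prg4 as its nearest TSS (chr1:150587238-150588125) had 36.3, 41.7, 6.93 and 8.74 normalized counts in p3 and 1264 to 1983 in p2 (median 1440), a log2 fold change of -5.61 ± 0.30 (adjusted p = 8.65e-08). The value was -5.60 without replicate 3 of p2 at 100 nM. No p3 sample came near the p2 range.

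An intergenic element 210434 bp from Dnajc24 (chr2:106213646-106214320) had 34.6, 23.4, 3.46 and 8.74 counts in p3 against 761 to 1264 in p2 (log2 fold change -5.26 ± 0.31, adjusted p = 1.35e-07). An element 135655 bp from Cops8 (chr1:90467243-90468298) had 47.8, 40.7, 5.77 and 10.7 against 1070 to 1496 when replicate 3 of 100 nM is set aside, and 1043 in that library. In an intron of Runx1t1, a transcriptional corepressor, the element at chr4:13780732-13781969 had 62.7, 50.9, 37.0 and 17.5 in p3 and 1290 to 2239 in p2. In none of these did the groups overlap.

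In an intron of Robo2, a receptor for Slit guidance cues, the element at chr16:74822353-74822999 had 9.89, 2.03, 3.46 and 0.971 counts in p3 and 247 to 610 in p2 (log2 fold change -5.12 ± 0.28, adjusted p = 8.77e-08). The smallest standard error among these elements, 0.13, was at chr14:79905191-79906203 near Gm10845, with 18.5 to 33.0 in p3 and 1108 to 1413 in p2 (log2 fold change -5.08). The elements near 4933440J02Rik and Gm16630 had log2 fold changes of -5.09 and -4.99.

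**Figure D2:**
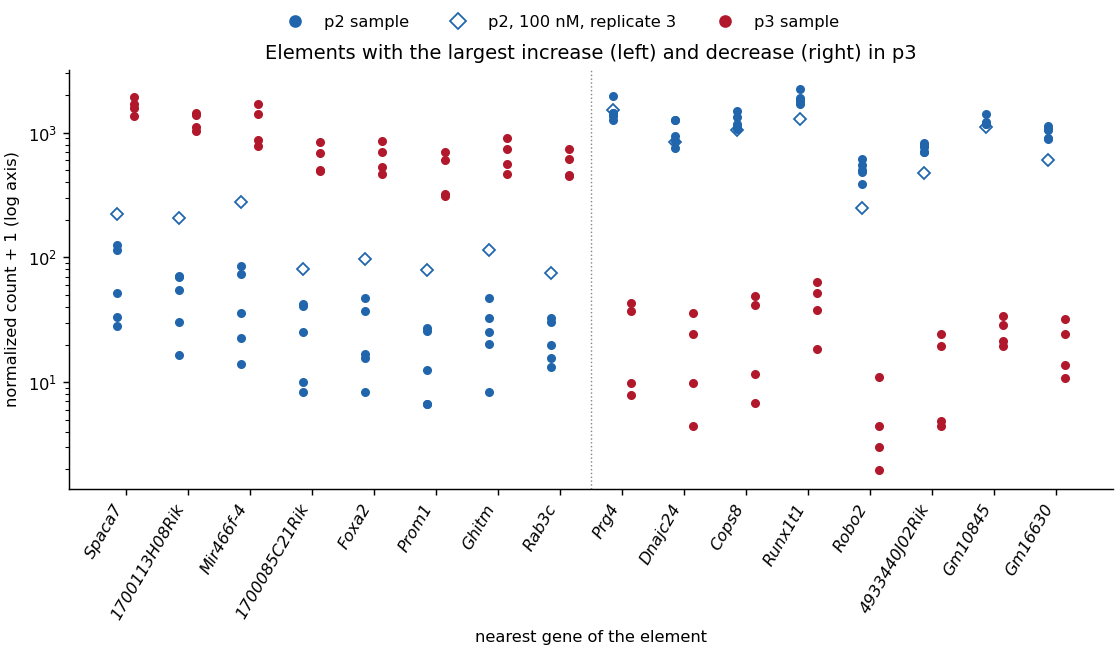
Normalized count plus 1 (log axis) in each sample for 8 elements that rose most and 8 that fell most in p3, named by nearest gene, with p2 samples in blue, p3 samples in red and replicate 3 of p2 at 100 nM as an open diamond. The groups do not overlap at any of the 16, and the diamond is the highest p2 sample at each of the 8 elements higher in p3.

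At 100 nM SAG, the concentration that both cell types shared, 1995 of 32852 elements differed, 572 higher (1.74%) and 1423 lower (4.33%) in p3. This comparison has 3 p2 and 2 p3 samples, and its count changed by over 1.5 times when any single library but replicate 1 of p2 was left out. Without replicate 1 of p2 it was 1712, with 578 higher and 1134 lower. Without replicate 3 of p2, 3631 elements were called, 1922 higher (5.82%) and 1709 lower (5.17%), so that the share of calls that were higher in p3 went from 28.7% to 52.9%. Without replicate 2 of p2 842 were called, without replicate 2 of p3 911 (12 higher) and without replicate 3 of p3 613 (5 higher). The last 2 fits set 1 p3 sample against 3 p2 samples, so that p2 alone gave the spread and the p3 sample was assumed to vary like them. In the voom fit of recovered reads, the calls split into 944 higher and 927 lower.

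The element near Spaca7 had 3.38 (adjusted p = 0.000457) against 4.23 in the pooled samples, and that in the Hmcn1 intron -4.83 (adjusted p = 0.000141) against -5.61. Without replicate 3 of p2, the 100 nM values are those of 2 against 2 samples. With SAG concentration as a covariate in the fit of all 10 samples, 2379 elements were called, 803 higher and 1576 lower. The cell type effect of that fit is the one at 100 nM, with the same log2 fold changes as the 5 samples alone. The samples at 10 and 500 nM add only to its estimate of the spread.

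For the domain TFs Nkx2-9, Pax6, Irx3, Nkx6-1 and Olig2, the element nearest to the TSS had a log2 fold change between -0.998 and 0.733, below the threshold. Other elements of these genes were called, among them a second promoter element of Pax6 described with the promoters. At the element over the Nkx2-9 promoter (chr12:56611650-56615607), p3 had 2137, 2026, 1874 and 1619 normalized counts and p2 had 879 to 1451 (median 1168). The log2 fold change of 0.73 ± 0.16 (adjusted p = 0.00235) was below the threshold of 2, although the groups did not overlap. The intergenic element 5402 bp from this TSS (chr12:56618535-56618838), whose sequence is printed above with its FOX match, had 381, 432, 282 and 354 counts in p3 and 11.4 to 107 in p2, a log2 fold change of 3.11 ± 0.40 (adjusted p = 4.58e-05). It was the only 1 of 22 tested elements near p3 and V3 genes to be called higher in p3 (4.55%). Over all tested elements 4.39% were higher and 6.06% lower. The 3 called lower (13.6%) were 258061 bp from Sim1, a TF of V3 neurons (-2.91), near Neurog3, a proneural bHLH TF (-2.55), and near Uncx, a homeodomain TF (-2.07). The Uncx element was no longer past the fold threshold with the replicate block (-1.93) or at 100 nM alone (-1.60), and had -1.95 and -1.98 without replicates 1 and 3 of p2 at 10 nM.

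Near the genes of p2 and V2 identity, 9 of 76 tested elements were lower in p3 (11.8%) and 2 higher (2.63%). Over all tested elements these shares were 6.06% and 4.39%. The median log2 fold change of the list was -0.43. A like share was lower near p3 and V3 genes (13.6%), neural progenitor genes (12.9%) and p0-1, V0 and V1 genes (11.5%), so it was not particular to p2 genes. The TSS element of Pax6, the homeodomain and paired TF used in the p2 gate, had 3103 to 3705 counts in p2 and 1593, 1966, 1484 and 1740 in p3, without overlap (log2 fold change -0.998 ± 0.075, adjusted p = 7.45e-07). An element in the last intron of Elp4, 44180 bp from the Pax6 TSS (chr2:105719376-105721243), had 911 to 1495 in p2 and 196, 102, 132 and 86.4 in p3 (-3.21 ± 0.20, adjusted p = 1.92e-07). This is the element printed above with its homeobox matches. PAX6 protein was part of the p2 gate.

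At Irx3, a repressor of the pMN fate expressed in p2, the element over the first exon overlapped between the groups, with 1980 to 3029 counts in p2 and 1852 to 2392 in p3 (log2 fold change -0.29 ± 0.12, adjusted p = 0.062). An intergenic element 195495 bp away (chr8:91996418-91997881) had 933 to 2725 in p2 (median 2085) and 313, 165, 181 and 95.2 in p3 (-3.36 ± 0.31, adjusted p = 3.95e-06). The lowest p2 value was again replicate 3 at 100 nM.

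Foxn4 is a forkhead TF that p2 cells use to make V2b interneurons. The element 5852 bp from its TSS (chr5:114279214-114280013) had 249 to 825 counts in p2 (median 649) and 23.1, 14.2, 6.93 and 10.7 in p3, a log2 fold change of -4.59 ± 0.30 (adjusted p = 2.82e-07) and the largest of the list. Near Nkx6-2, a homeodomain TF of the p2 and neighboring domains, an element in an intron of Inpp5a had a log2 fold change of -3.43 (adjusted p = 4.66e-06). The promoter of Nkx6-1, a TF of p2, pMN and p3 alike, had 2238 to 2623 counts in p2 and 2475 to 2570 in p3, overlapping ranges with a log2 fold change of 0.05 ± 0.05 (adjusted p = 0.459).

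For the pMN and p0-1 genes, single elements differed and the calls were few in number. The TSS element of Olig2, the bHLH TF of the pMN, overlapped, with 688 to 1217 counts in p2 and 904 to 1131 in p3 (log2 fold change 0.15 ± 0.16, adjusted p = 0.508, and -0.011 at 100 nM alone). The distal element 51954 bp from Olig2 (chr16:91172837-91174356) had 930 to 1185 in p2 and 102, 104, 53.1 and 56.3 in p3 (-3.62 ± 0.17, adjusted p = 4.58e-08). This element had a mean of 1188 in pMN and 887 in p0-1 at day 6, so p3 was the cell type that stood low. At Dbx1, a TF of the p0 domain, an element 59780 bp away (chr7:49696204-49697027) had 419 to 723 counts in p2, 4.62 to 21.4 in p3 and a mean of 2152 in p0-1 (-4.78 ± 0.25, adjusted p = 7.6e-08). An intronic element of Dbx2, a TF of the p0 and p1 domains, had -3.11. Of the pMN and motor neuron list 2 of 31 elements were lower (6.45%) and 1 higher (3.23%), and of the p0-1, V0 and V1 list 3 of 26 lower (11.5%) and 1 higher (3.85%), against 6.06% and 4.39% of all tested elements. The higher elements were in an intron of Chat with Slc18a3, the vesicular acetylcholine transporter gene, as nearest TSS (2.62), and 152992 bp from Foxd3 (2.43).

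Near FP genes the direction was the opposite. Of 68 tested elements, 18 were higher in p3 (26.5%) and 1 was lower (1.47%), and the median log2 fold change of the list was 1.30. Over all tested elements these shares were 4.39% and 6.06%. Without replicate 3 of p2 at 100 nM, 22 were higher and 2 lower. Elements called higher were found at 8 of the 11 genes of the list, with 8 of the 14 tested elements of Foxa2, 2 of 4 of Shh, the secreted ligand, 2 of 3 of Ferd3l, a bHLH TF, and 2 of 7 of Spon1, a secreted FP protein. Foxa1, Corin, Lmx1a and Lmx1b had 1 each. For Ntn1 and Slit1, which encode secreted guidance cues, 0 elements of 4 and of 9 were called.

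The Foxa2 promoter element (chr2:148044037-148046986) had 1240, 1927, 1268 and 2215 normalized counts in p3 and 207 to 566 in p2 (median 267), a log2 fold change of 2.42 ± 0.25 (adjusted p = 9.58e-06). The 5 p2 samples other than replicate 3 at 100 nM lay at or below 288. The Ferd3l promoter (chr12:33926966-33929399) had 585, 836, 545 and 921 in p3 and 19.6 to 126 in p2, the largest difference at any called promoter (3.67 ± 0.35, adjusted p = 4.3e-06).

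At Shh the p3 samples differed among themselves. The element at chr5:28476172-28477133, 9551 bp from its TSS, had 148 and 862 counts in replicates 2 and 3 at 100 nM and 203 and 1229 in replicates 2 and 3 at 500 nM. In p2 it had 6.79 to 44.1 except in replicate 3 at 100 nM, where it had 178, so the groups overlapped. The log2 fold change was 3.26 ± 0.71 (adjusted p = 0.00238), and it was not called at 100 nM alone (2.19, adjusted p = 0.0997) or without replicate 3 of p3 at 100 nM (2.93, adjusted p = 0.0111). The one lower element of the list was 486849 bp from Slit2 (-3.57).

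The FP markers Foxa1, Foxa2, Shh, Ferd3l and Spon1 are 5 of the 11 genes of this list. Their 93 elements summed to 21168 to 33479 normalized counts in p3 and 8759 to 10812 in the p2 samples other than replicate 3 at 100 nM, which had 14174. Of the 36 tested, 15 were higher and 0 lower in p3, while the other 6 genes had 3 higher and 1 lower of 32, against 4.39% and 6.06% of all tested elements. The share of FP cells in the sorted p3 samples, and its part in these results, was not tested.

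Components of the Hedgehog pathway had 4 of 47 elements higher (8.51%) and 3 lower (6.38%) in p3. Over all tested elements these shares were 4.39% and 6.06%. The element over Gli1, a GLI activator and target of the pathway, had 2349 to 3286 counts in p2 and 2092, 1890, 1770 and 1356 in p3, without overlap (log2 fold change -0.65 ± 0.12, adjusted p = 0.000926), below the fold threshold. An element 355573 bp from Gli3, the main GLI repressor, had 421 to 701 in p2 and 14.8, 10.2, 2.31 and 3.88 in p3 (chr13:15107522-15108778, -4.83 ± 0.24, adjusted p = 5.5e-08). An intronic element of Hhip, a Hedgehog-binding antagonist, had 516 to 1027 in p2 and 41.2, 46.8, 24.3 and 14.6 in p3 (chr8:80037422-80038392, -4.35 ± 0.25, adjusted p = 1.14e-07). Near Boc, a coreceptor, the log2 fold change was -2.45. Gli3 and Hhip also had 1 element each that was higher in p3. Near Disp1, which releases Shh from the cells that make it, 2 of 5 elements were higher in p3, the stronger with 192 to 348 in p3 and 13.9 to 32.5 in p2 (2.96 ± 0.22, adjusted p = 6.9e-07). For Ptch1, the receptor, 0 of 9 tested elements were called.

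Guidance receptors and ligands made up the list with the largest share of lower elements. Of 133 tested elements 27 were lower (20.3%) and 3 higher (2.26%) in p3, against 6.06% and 4.39% of all tested elements. The lower ones lay near 11 of the 20 genes. Epha5, an ephrin receptor, had 5 of 8, and Robo1, Robo2, Dcc, Unc5d, Epha3 and Sema3a had 3 each. The strongest at Robo1 (chr16:72610491-72611145) had 395 to 724 counts in p2 and 26.4, 10.2, 5.77 and 3.88 in p3 (-4.78 ± 0.28, adjusted p = 1.4e-07). That near Sema3a, a secreted semaphorin, had 148 in replicate 3 of p2 at 100 nM, 405 to 506 in the other p2 samples and 4.07 to 11.5 in p3. An intronic element of Unc5c, a netrin receptor, had 122 to 348 in p2 and 0, 4.07, 3.46 and 5.83 in p3.

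Proneural and Notch genes had 7 of 72 elements lower (9.72%) and 2 higher (2.78%), against 6.06% and 4.39% of all tested elements. The element 5902 bp from Neurog2, a proneural bHLH TF (chr3:127625333-127629136), was among the most open of those named in p2, at 3449 to 4010 counts, and had 726, 549, 505 and 372 in p3 (-2.82 ± 0.14, adjusted p = 5.38e-08). The element 7788 bp from Hes5, a Notch effector, had 1311 to 1866 and 125 to 269 (-2.99), that near Neurod1 had -2.84, and that 510806 bp from Jag1, a Notch ligand, had 147 to 187 and 6.80 to 31.3 (-2.79). Both higher elements were near Notch2. Neural progenitor genes had 4 of 31 elements lower (12.9%) and 0 higher, among them elements near the SOXB1 genes Sox3 (-3.72) and Sox1 (-2.34).

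The calls of the remaining lists follow. Wnt pathway genes had 7 of 63 lower (11.1%) and 3 higher (4.76%), with Lgr5, Sfrp1 and Sp8 lower (-3.15, -3.04 and -2.99) and an intronic element of Tcf7l2 higher (2.95). The element near Sp8 had 44.2 counts in replicate 3 of p2 at 100 nM and 184 to 296 in the other p2 samples. Dorsal neural tube genes had 2 of 44 lower (4.55%) and 1 higher (2.27%), with elements of Olig3 (-2.65) and Pax3 (-2.52) lower and one near Msx1 (2.53) higher. Retinoic acid genes had 3 of 50 higher (6%) and 1 lower (2%), 2 of them at Rarb, a receptor gene (the stronger 3.12), and 1 near Dhrs3, a retinal reductase (2.86), while the lower one was near Cyp26a1, which degrades retinoic acid (-2.30).

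Among RFX and ciliary regulators 2 of 25 were lower (8%, near Foxj1 and in Rfx3) and 0 higher. The NFI and temporal factor list had 3 of 34 lower (8.82%) and 0 higher, 2 of them at Nfia (the stronger -2.28) and 1 in Zbtb20 (-2.16), and the BMP list 3 of 41 (7.32%) and 0 higher, 2 of them near Id4 (the stronger -2.46) and 1 in Smad7 (-2.04). Without replicate 3 of p3 at 500 nM the elements of Nfia (-1.90), Zbtb20 (-1.99) and Smad7 (-1.83) and that near Gata6 (-1.94) were below the fold threshold. The Smad7 element was also below it without replicate 2 of p3 at 500 nM (-1.87) or replicate 3 of p2 at 10 nM (-1.94). Neuronal genes had 2 of 35 lower (5.71%) and 1 higher (2.86%), namely Elavl4 (-2.26), Dcx (-2.15) and Snap25 (2.31). The Elavl4 element had 475 counts in replicate 3 of p2 at 100 nM and 88.9 to 238 in the other p2 samples, and without that library its mean was too low to be tested. The elements near Jag1 and Lgr5 were not tested without that library either. The Dcx element had -1.98 with the replicate block and -1.85 at 100 nM alone, and the Elavl4 element had -1.81 with the block of the description numbers and -1.69 with sample weights, all below the fold threshold. At 100 nM alone the elements of Snap25, Elavl4, Dcx, Olig3, Msx1, Dhrs3, Nfia, Zbtb20 and Smad7 were not called. Endoderm genes had 1 of 19 in each direction (5.26%), near Gata4 (2.94) and Gata6 (-2.21), while neural crest genes had 0 of 12 called and NMP and mesoderm genes 0 of 12. With so few elements in each list, shares near the 4.39% and 6.06% of all tested elements are no result about the list.

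**Figure D3:**
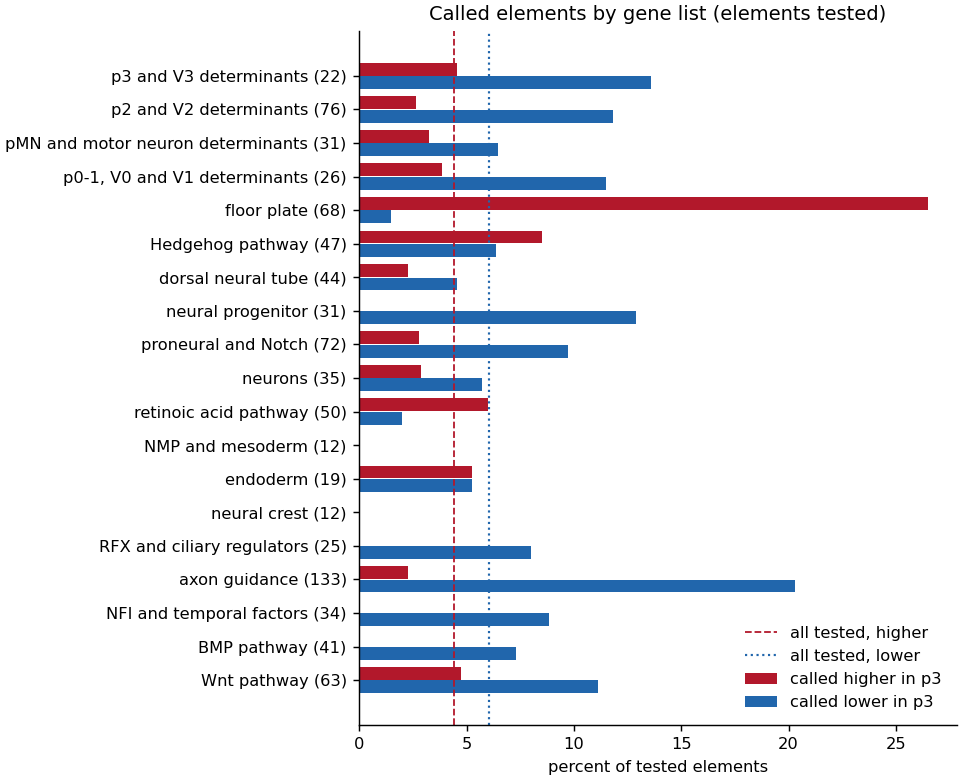
Percent of the tested elements nearest to the genes of each list that were called higher (red) or lower (blue) in p3, with the number tested in parentheses and the percent over all 33256 tested elements as lines (4.39% dashed, 6.06% dotted). The FP list reaches 26.5% higher, and the axon guidance list 20.3% lower.

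Some genes were nearest to several called elements, and are named here by their number of calls. Whether calls cluster was not tested. Over all tested elements 4.39% were called higher and 6.06% lower in p3. Foxa2 had the most elements higher in p3, 8 of 14 tested with log2 fold changes of 2.25 to 3.99. It was followed by Auts2, a neurodevelopmental gene, with 5 of 21 (and 2 lower), Olfm4 with 5 of 15 (and 3 lower), and by Kazn, Mir6344 and Zfp608 with 4 of 11, 4 of 9 and 4 of 32 (Zfp608 with 3 lower). On the other side, 9330117O12Rik had 7 of 11 lower, Tenm3, a teneurin of synaptic partner matching, 7 of 22 (and 1 higher), Wwox 7 of 15, Epha5 5 of 8 and Gria1, an AMPA receptor subunit gene, 5 of 12. Calls lay nearest to 1260 genes in the higher set and 1607 in the lower, and 238 genes had both.

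The calls were distal. Of 6850 tested elements annotated as promoter, 36 were called (0.526%), 19 higher and 17 lower, whereas 3438 of the other 26406 were (13.0%). The median distance to the nearest TSS was 45433 bp for elements higher in p3 and 66422 bp for those lower, against 11361 bp for all tested elements, and 28.0%, 36.6% and 15.9% lay beyond 100000 bp. Introns held 46.8% and 43.3% of the higher and lower sets, against 35.7% of all tested elements. Intergenic sequence held 48.5% and 53.1%, against 31.3%. The promoters with the next largest increases after Ferd3l were those annotated to Acvr1 (3.24), a BMP type I receptor gene, and 1700054K19Rik (3.15). Apart from the distal Pax6 elements above, a second promoter element of Pax6 (chr2:105680198-105683277) had a mean of 1468 ± 173 counts in p2 (SD, n = 6) and 257 ± 62.2 in p3 (SD, n = 4), a log2 fold change of -2.48 ± 0.14 (adjusted p = 1.0e-07). A promoter element of Prdm8 had 1501 ± 169 and 350 ± 74.3 (-2.08). These promoters were named after their values were seen.

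FOX matches were more frequent in elements higher in p3 than in those lower. The letters TGTTTAC, on either strand of the central 300 bp, were found in 13.3% of the elements higher in p3, in 2.78% of those lower and in 3.79% of all tested. Over all tested elements, grouped by log2 fold change, the share was 2.30% below -3 (738 elements), 3.29% between 0 and 1 (13456 elements), 7.14% between 1 and 2 (2396), 10.4% between 2 and 3 (1191) and 25.8% above 3 (271). The median GC content of whole elements was 46.1% in the higher set, 44.9% in the lower and 51.8% in all tested. Tested elements were divided into 3 equal groups by GC content. In the group of lowest GC the FOX share was 13.99% for higher, 2.67% for lower and 6.15% for all elements. In the middle group it was 12.3%, 3.30% and 3.78%. The group of highest GC held 16 higher and 30 lower elements, of which 0 had a match. Motif shares are descriptions of the letters and carry no test.

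As a ratio between the higher and lower sets, other letters differed less. In percentage points the TEAD letters differed about as much as FOX. The RFX letters GTTGCCA were found in 8.15% of higher, 3.77% of lower and 4.38% of all elements, and the TEAD letters GGAATG in 28.8%, 18.0% and 15.7%. The order was the other way for the SOX letters ACAATG (23.5% of higher, 31.0% of lower, 16.4% of all), the NKX2 letters CACTTNA (15.3%, 20.3% and 12.1%), the E-box CAGATG (24.04%, 31.9% and 20.3%) and the POU letters ATGCAAAT (1.78%, 3.72% and 1.82%). The homeobox core TAATTA was found in 8.70%, 10.2% and 5.85%. Within the group of lowest GC its shares were 10.8% of higher, 11.3% of lower and 11.4% of all elements. In the middle group they were 4.94%, 6.80% and 4.95%, so higher elements did not exceed all elements of like GC content. Only the FOX and homeobox letters were divided by GC content. The E-box CAGCTG (22.0%, 19.2% and 19.9%) and the AP-1 letters TGANTCA (10.8%, 10.5% and 6.65%) were about as frequent in both sets. The GLI letters GACCACCC were rare everywhere, in 0.411% of higher, 0.546% of lower and 1.06% of all elements, and the CTCF core AGGGGGC was found in 4.18%, 4.87% and 9.36%. The letters of different motifs were searched separately and may overlap.

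**Figure D4:**
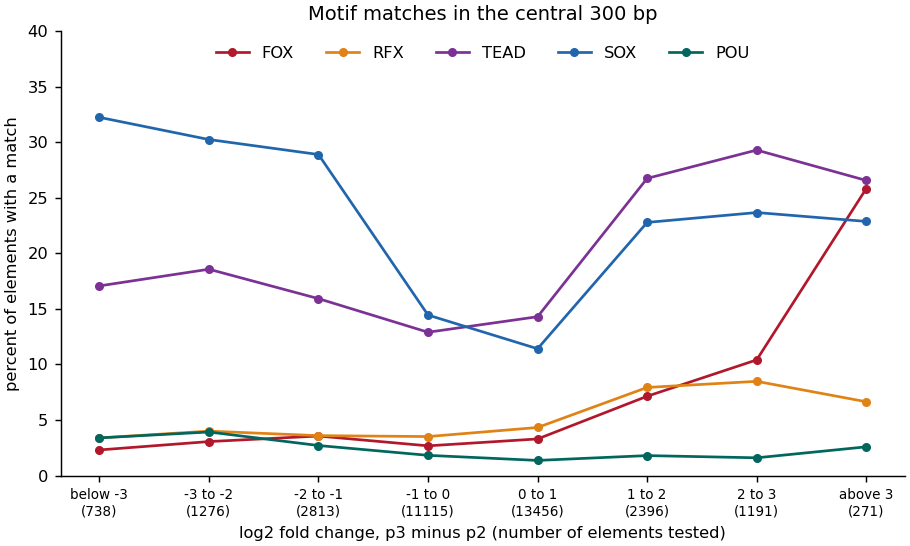
Percent of tested elements with a match to 5 motifs in the central 300 bp (y axis), by log2 fold change of p3 over p2 (x axis, with the number of elements in each bin). The FOX share climbs to 25.8% above a log2 fold change of 3, while the SOX share is highest, at 32.2%, below -3.

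The elements chosen at day 6 were then followed over all days and cell types. The day 6 p2 and p3 samples chose these elements, so their values are given as a description, and no other sample had a part in the choice. The median count over the 1460 elements higher in p3 was 10.8 to 11.8 in the 3 NMP samples at day 3. In p3 it was 64.6 to 136 at day 4 (5 samples), 167 to 310 at day 5 (5 samples) and 269 to 483 at day 6 (4 samples). In p2 it was 32.0 to 44.7 at day 4, 37.96 to 67.5 at day 5 and 26.1 to 116 at day 6, where replicate 3 at 100 nM was the highest and the other samples had 47.0 or less. In pMN and p0-1 at day 6, which were not used to choose the elements, it was 29.6 to 72.4 (4 samples) and 22.8 to 46.1 (5 samples), so all were below the p3 samples. Among the p3 samples at day 6, replicates 2 had 270.4 and 269 and replicates 3 had 401 and 483, at 100 and 500 nM.

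For the 2014 elements lower in p3, the median count was 8.09 to 9.69 in NMPs. In p2 it was 72.5 to 148 at day 4, 209 to 311 at day 5 and 242 to 365 at day 6. In p3 it was 30.3 to 35.4, 33.1 to 45.7 and 24.3 to 44.5 at the same days. pMN had 196 to 273 and p0-1 had 195 to 358 at day 6, and neither overlapped with p3. On days 5 and 6 these samples were above their day 4 levels, while those of p3 lay within 24.3 to 45.7 on all 3 days.

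**Figure D5:**
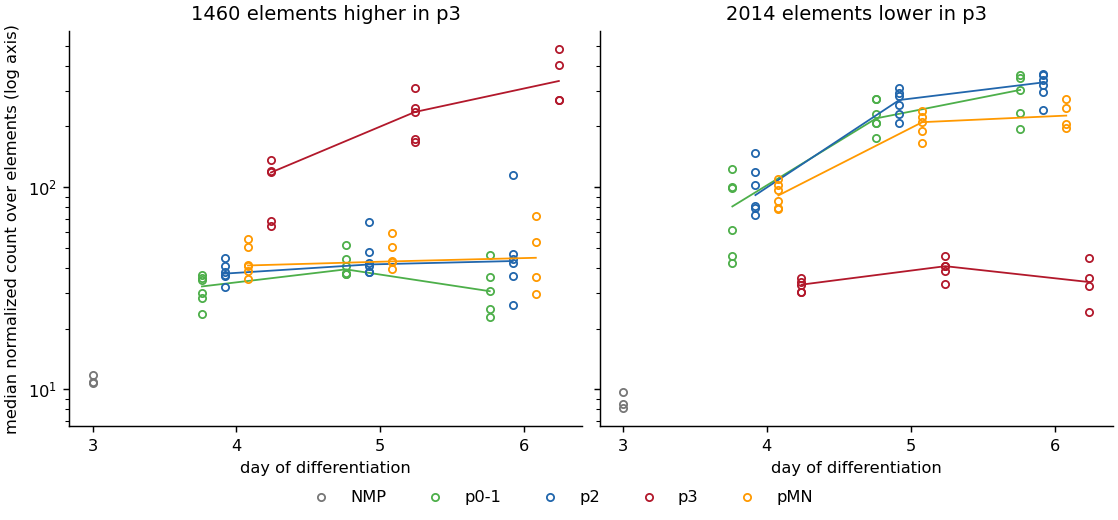
Median normalized count (log axis) over the elements higher in p3 at day 6 (left, 1460) and lower in p3 (right, 2014), by day of differentiation, with 1 point per sample and lines through the medians of each cell type. From day 4 on, p3 (red) lies above every other NP sample of the same day on the left and below every other on the right.

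p3 and p2 were also compared at the earlier days, in other samples. At day 5, 1827 of 31973 elements differed, 488 higher (1.53%) and 1339 lower (4.19%) in p3, and at day 4 295 of 29618, with 68 higher (0.23%) and 227 lower (0.766%). Of the elements higher in p3 at day 6, 960 were tested at day 5, and 448 of these (46.7%) were called the same way, with a median log2 fold change of 1.97. At day 4, 59 of 494 tested (11.9%) were called, with a median of 1.04. Of the elements lower in p3 at day 6, 1088 of 1517 (71.7%) were called at day 5 and 163 of 791 (20.6%) at day 4, with medians of -2.34 and -1.42. No element was called in the opposite direction on either day. An element had to pass the filter on the mean of that day to be tested, so elements with low counts early are not among these.

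Single elements followed different courses. The element near Spaca7 had a mean of 655 counts in p3 at day 4, 926 at day 5 and 1642 at day 6, and that in the Rab3c intron had 48.4, 197 and 565. The element near Irx3 went from 86.7 in p2 at day 4 to 712 and 1999, while in p3 it had 54.1, 71.1 and 189. The Foxa2 promoter had a mean of 1494 in NMPs. In p2 it then had 661, 358 and 306 at days 4, 5 and 6, whereas in p3 it had 1298, 1336 and 1662.

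Whether the difference between p3 and p2 itself changed from day 5 to day 6 was tested with an interaction term. Of 32621 elements, 7 differed by more than 1 on the log2 scale at an adjusted p under 0.01 (0.0215%), 4 with a higher and 3 with a lower value at day 6, and 3789 reached an unadjusted p of 0.05. A block for the replicate number gave 141, 79 higher and 62 lower. With samples centered on their medians there were 19 (6 higher and 13 lower). The strongest of the 7 was an intergenic element near 1700113H08Rik (chr10:87237400-87238155), which had 59.5 ± 17.0 counts in p2 at day 5 (SD, n = 6) and 601 ± 153 at day 6 (SD, n = 6), while p3 had 16.9 ± 4.89 (SD, n = 5) and 30.8 ± 18.4 (SD, n = 4). The change in log2 fold change was -2.58 ± 0.34 (adjusted p = 0.00609). An element near Nkx6-1 (chr5:101579310-101580170) went from 92.8 ± 25.9 to 244 ± 34.7 in p3 and from 66.0 ± 14.6 to 48.1 ± 13.1 in p2, a change of 1.69 ± 0.26 (adjusted p = 0.00849). Both were named after their values were seen. The count ranged from 0 to 153 when single samples were left out, and 9 of these 21 limma fits called 0, where 3310 to 3961 elements reached an unadjusted p of 0.05. In voom on all samples the count was 12. Without replicate 3 of p2 at 100 nM on day 6 it was 126, and without replicate 2 of p3 at 100 nM on day 6 it was 153.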

How the data were processed

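Accessibility by CaTS-ATAC was measured in 67 samples, of which the 10 day 6 p2 and p3 samples, the 11 of these types at day 5 and the 11 at day 4 were compared. The authors processed reads with nf-core/atacseq, aligned to mm10, called peaks with MACS, kept consensus peaks, and counted reads in 111638 elements. The authors deposited values on a log2 scale, from the variance-stabilizing transformation (VST) of DESeq2 on counts divided by size factors, and the deposited HOMER annotation gives each element its position and nearest TSS. Here the VST was inverted to normalized counts and reads. Per sample, 100% of the recovered values checked lay within 0.01 of a whole read (largest distance 3.60e-11). The VST draws low counts together, so its log2 fold changes understate the change of low elements.

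Elements with a mean above 100 normalized counts over the samples compared were tested two-sided with limma 3.58.1 in R 4.3.3, with a variance trend, on the VST values, since these are not counts. A call needed a log2 fold change beyond 2 in either direction (beyond 1 for the difference between days) and a Benjamini-Hochberg adjusted p under 0.01. On simulated data, the fit was tested before use. The replicate numbers of the titles were used to pair the samples. Deviations from condition means correlated in all 13 same-numbered pairs of samples (r from 0.115 to 0.820), against -0.820 to 0.536 in 24 pairs of different number. Deviations within a condition cancel out, so negative values between different numbers were partly built in. The comparison alone does not settle the numbering. In 15 samples, the 4 p3 samples at day 6 among them, the description gives another number than the title, and a block of these numbers was an alternative. Replicates differed by more than sampling noise, with chi-square values of 2.72 to 24.6 per degree of freedom.

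Named elements were the 8 with the largest change in each direction (1 per gene), for each of 19 gene lists the strongest called element of up to 4 genes, and the elements nearest the TSS of domain TFs and Gli1. The genes with the most calls each way were also named (5, with 1 tie). The members and lists were chosen with earlier results of these data known, and some genes are not reported here. Sequences were read from GRCm38, the build of mm10, with Python 3.11.15, and 12 motifs were searched on both strands. Alternatives covered the filter, threshold, fold scale, centering, voom, variance trend, sample weights, replicate block, SAG and the samples in the fit.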

Additional observations from a re-analysis of the deposited data

Results flagged for a closer look

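In 14 of 150 sets of samples (the p2 or the p3 values of a named element, or their median over called elements), 1 sample lay far from the rest, where chance gives about 1 in 20, and 12 of these concerned replicate 3 of p2 at 100 nM. The measure is the gap to the nearest sample as a share of the range of the group, and sets share samples. That library was the highest p2 sample for the median of the elements higher in p3 (0.634), and at the elements near Dhrs3 (0.717) and Tcf7l2 (0.690) and the Foxa2 promoter (0.676). It was the lowest p2 sample at the elements near 4933440J02Rik (0.698), Foxn4 (0.638), Irx3 (0.630), Hhip (0.635), Boc (0.639), Olig3 (0.785), Sema3a (0.815) and Sp8 (0.734). At the elements near Sim1 (0.658) and Gli3 (0.722), replicate 3 of p2 at 10 nM was the highest, with 659 and 701 normalized counts. The difference between p3 and p2 changed from day 5 to day 6 by the interaction test at 7 elements. Those with a higher value at day 6 included elements near Adra2c, Nkx6-1 and Redrum, and those with a lower value were near 1700113H08Rik, near St6galnac5 and in Pdzd2. These were named after their values were seen.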

How the results depend on the processing

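The count of 3474 elements at day 6 stayed within 1.5 times with the replicate block (3087), the block of the description numbers (4051), centering (3467), voom (4222), no variance trend (3473), sample weights (4285), SAG as a covariate (2379), all day 6 NPs in the fit (3036, 838 higher and 2198 lower) and a ratio of mean counts (3951), and with any sample left out (2970 to 4013). With SAG as a covariate the log2 fold changes are those at 100 nM alone. The day 6 count was 7850 without the filter, 5919 with a mean above 50 and 8331 with a log2 fold change above 1. At 100 nM (1995) these 3 gave 4505, 3255 and 3549, the description numbers 3556, sample weights 3579 and left-out samples 613 to 3631, the lowest with 1 p3 sample in the fit. At day 5 (1827) the 3 gave 3965, 3095 and 5851, with 1658 to 2040 when samples were left out, and at day 4 (295) 629, 503 and 1958, with 235 to 337. The change from day 5 to day 6 (7 elements) is the least settled, with 141 under the replicate block, 118 with the description numbers, 29 without the filter, 19 with centering, 12 with voom, 14 without the trend, 678 with sample weights and 1 with a threshold of 2. Leaving out samples gave 0 to 153, beyond 1.5 times in 18 of 21 fits. The replicate block changed no other count by over 1.5 times and ended the calls of the Dcx and Uncx elements. A fit with the block and without replicate 3 of p2 at 100 nM, chosen after seeing the data, called 3593. Of 1576 values of the 73 named elements under alternatives, 1535 kept their side of the thresholds, 39 fell below (elements near Dcx, Dhrs3, Elavl4, Gata6, Msx1, Nfia, Olig3, Shh, Smad7, Snap25, Sp8, Uncx and Zbtb20), 0 rose above and 2 changed sign, those of the Olig2 TSS element, which was -0.011 with SAG as a covariate and at 100 nM alone. Those 2 settings give the same log2 fold change, so they count 1 estimate 2 times. Motif shares scale with the window: FOX was found in 7.60% of higher and 1.04% of lower elements in the central 150 bp, and in 30.4% and 13.2% over whole elements. The cause of these shifts was not tested.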
